A study of Mus musculus with 104 samples.

Results

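The transcriptome of primary mouse hepatocytes (PMH) was compared between cells transfected with 50 nM of the siRNA D1 and mock cells. The comparison comprised the 4 libraries whose treatment label gives D1 at 50 nM and the 8 libraries labelled mock, 12 libraries in a series that holds 92 others, and all genes that passed a filter on low counts were tested. D1 is the parent GalNAc-siRNA against Hao1 and carries no glycol nucleic acid (GNA, an acyclic nucleotide analogue that has no ribose ring). GalNAc is the sugar ligand of the hepatocyte asialoglycoprotein receptor, although here the duplexes were delivered with Lipofectamine RNAiMax. PMH are liver cells taken from the animal into culture, and these were purchased cells whose mouse strain, age and number of animals are not given in the sources used here. All groups were harvested 24 h after transfection, and the study as a whole examined 6 siRNAs against Hao1 or Ttr at several doses. The 4 libraries each of D1 at 10 nM, D2 at 50 nM and D4 at 50 nM were compared with D1 at 50 nM. D2 is the same sequence with a single GNA cytosine in the guide seed, and D4 is a parent siRNA against Ttr. The libraries of D1 at 0.1 and 1 nM were used for dose values against mock.

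In RNA interference, the guide strand of an siRNA is loaded into an Argonaute protein and pairs with mRNA. Pairing along the whole guide allows Argonaute 2 to cleave the target, while pairing through the seed alone (guide positions 2 to 8) can lower an mRNA more modestly, as a microRNA does. Hao1 encodes glycolate oxidase, a peroxisomal liver enzyme that makes glyoxylate from glycolate, and it is a therapeutic target in primary hyperoxaluria. The question addressed here was which genes other than Hao1 were altered by the parent without GNA at its highest dose, and in which directions.

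The summed gene counts per library were 3623954 to 5691251 for D1 at 50 nM (median 4226825) and 3409963 to 5308584 for mock (median 4927571), so that a gene at 1 CPM (the count scaled to a common library total) rested on only a few reads. Levels are given as CPM, which are not divided by gene length and are compared only within a gene. ERCC spike-ins took 0.525 to 0.711% of the counts with D1 and 0.453 to 0.790% in mock. D1 replicate 4 stood apart by the number of genes with a count, 17340 against 16110 to 16250 in the other 3, and had the highest share of mitochondrially encoded counts, 3.71%. It was also the D1 library at 50 nM with the most counts, 5691251. Nothing in the labels says that replicates were separate cultures or animals, so p-values measure the spread between these libraries, which may be technical. Of cell type markers, the 11 hepatocyte markers summed to 22850 to 25600 CPM with D1 and 19380 to 23560 CPM in mock, and the endothelial markers Kdr, Clec4g and Cdh5 had no count in either group. The macrophage markers summed to 209 to 221 CPM with D1 and 203 to 258 CPM in mock, most of it from Cd14, and stellate cell markers to 19.3 to 25.6 CPM and 16.03 to 28.6 CPM. The 8 cholangiocyte (bile duct) markers summed to 513 to 654 CPM with D1 and 348 to 405 CPM in mock, with no overlap. In bulk RNA, a change in the number of cells of a type and a change in RNA per cell cannot be told apart.

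The guide sequence that pairs with the Hao1 site is shown first, because the genes that fell are read against its seed. In GRCm39 with the GENCODE M39 annotation, the site lies at chr2:134340220-134340242 on the minus strand, in coding sequence of exon 8 of the transcript ENSMUST00000028704.4. The guide is written as the reverse complement of this site, 5′ to 3′, with the seed in capitals, and the site with the bases opposite the seed and opposite guide position 1 in capitals.
D1 guide: uUGUCGAUgacuuucacauucug
Hao1 site: cagaatgtgaaagtcATCGACAA
A match to ATCGACAA is called an 8-mer here, a match to ATCGACA (guide positions 2 to 8) a 7-mer of positions 2 to 8, and a match to TCGACAA (positions 2 to 7 with the A opposite position 1) a 7-mer with A. Only the sense strand of annotated mRNA was searched, and a gene was counted under its longest match. A match is a description of the letters and does not show that the guide bound there. In the longest annotated 3′-UTR of each of 10646 protein-coding genes tested, Hao1 aside, 41 genes held the 8-mer, 156 the 7-mer of positions 2 to 8 and 105 the 7-mer with A.

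Hao1 was the most strongly decreased of the genes called. Its level was 1.70, 0.463, 5.23 and 1.74 CPM in the 4 D1 libraries (7, 2, 19 and 10 counts), against a lowest, median and highest of 27.9, 34.4 and 38.95 CPM in mock. All D1 libraries lay far below all mock libraries, with replicate 3 the highest of the treated ones. The log2 fold change was −3.97 with a standard error of 0.24 (adjusted p = 6.29e-12, edgeR's quasi-likelihood test), a residual level of 6.39% of mock. With so few counts, the level within the D1 group is imprecise. Across doses, each against the same 8 mock libraries, the log2 fold change of Hao1 was −1.45 at 0.1 nM, −3.62 at 1 nM, −3.97 at 10 nM and −3.97 at 50 nM. Directly compared, 50 nM differed from 10 nM by 0.02 on the log2 scale, with a 95% confidence interval of −0.90 to 0.94. Around Hao1 in the glyoxylate pathway, Hoga1, which releases glyoxylate from hydroxyproline breakdown in mitochondria, rose by a log2 fold change of 0.58. Grhpr, which reduces glyoxylate, and Ldha, which can oxidise it to oxalate, had values of −0.33 and −0.14, both called lower with overlapping groups, while Agxt, the transaminase that turns glyoxylate into glycine, was at 0.23 with an adjusted p of 0.477. Of the 9 genes of the list tested, 3 including Hao1 were called lower (33.3% against 14.2% of all genes tested). That count was 2 without D1 replicate 2 or 3 or mock replicate 3, 4, 7 or 8.

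Beyond Hao1, D1 at 50 nM was accompanied by changes across the transcriptome. Of 11251 genes tested, 2914 were called at an adjusted p under 0.05 (25.9%), 1597 of them lower (14.2%) and 1317 higher (11.7%). Large changes were mostly decreases: 219 of the genes called fell by a log2 fold change of 1 or more, whereas 61 rose by that much. Most changes were small, with a median log2 fold change of −0.39 over genes called lower, 0.35 over genes called higher and 0.01 over all genes tested. In 915 of the genes called lower all 4 D1 libraries lay below all 8 mock libraries, and in 612 of those called higher all lay above. The plot of all genes tested shows this asymmetry, with Hao1, Ccnb2, Cdh17 and Actg1 far to the left and few genes as far to the right.

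**Figure D1:**
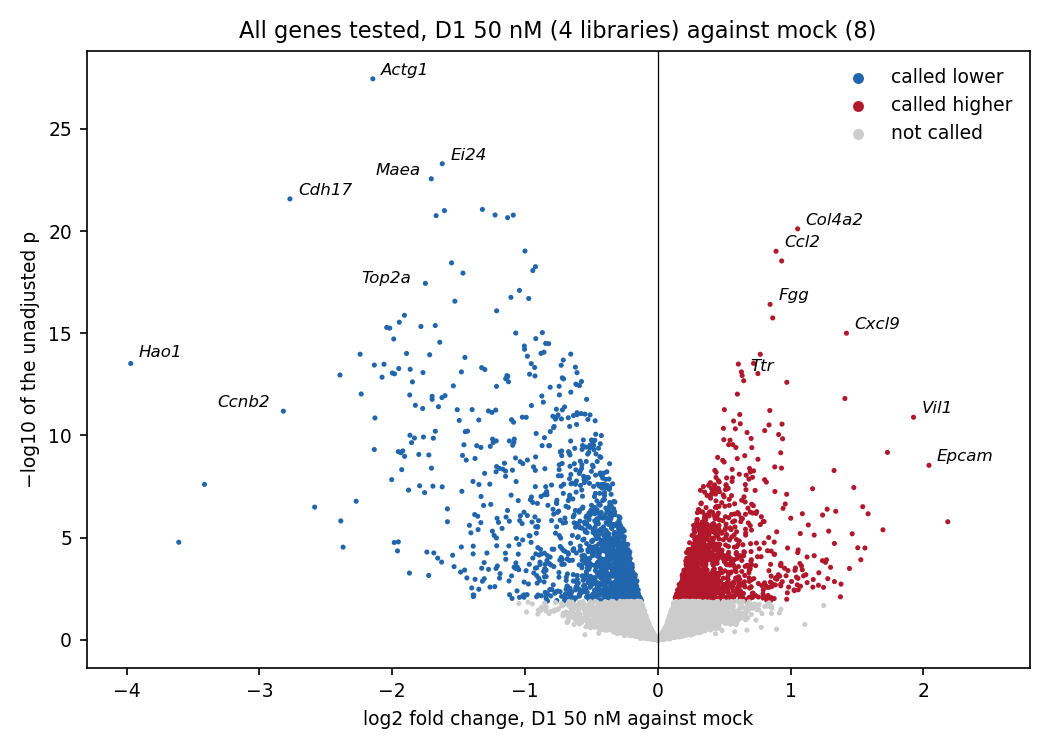
Log2 fold change of D1 at 50 nM (4 libraries) against mock (8 libraries) on the x axis and −log10 of the unadjusted p from edgeR on the y axis, 1 point for each of 11251 genes, blue for genes called lower and red for genes called higher at an adjusted p under 0.05. Of the genes called, 219 lie at or beyond −1 and 61 at or beyond 1, and Hao1 is at −3.97.

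Several of the genes that fell furthest or with the smallest p-values were separated from mock in every library. The rule for naming the largest decreases and increases required no overlap with mock. For those genes, here and below, the separation was fixed by that choice. Cdh17, a cadherin of intestine and liver epithelia, was at 36.3, 31.0, 31.6 and 36.4 CPM with D1 and at 187, 234 and 272 CPM (lowest, median, highest) in mock. The groups were far apart and the D1 libraries close together, with a log2 fold change of −2.77 (SE 0.09, adjusted p = 7.51e-19). Actg1, cytoplasmic gamma-actin, was at 45.3, 48.8, 44.3 and 39.7 CPM against 181, 198 and 212 CPM in mock, again without overlap. Its log2 fold change was −2.15 (SE 0.07, adjusted p = 3.99e-24). Actb, whose sequence is close to that of Actg1 so that some reads cannot be assigned to one of them, was at −0.23. Maea, a subunit of the CTLH ubiquitin ligase, fell from a median of 148 CPM to between 39.6 and 52.8 CPM (log2 fold change −1.71, SE 0.08, adjusted p = 1.04e-19). Ei24, a membrane protein of the endoplasmic reticulum and a p53 target, lay between 41.6 and 48.1 CPM with D1 and between 126 and 148 CPM in mock (−1.62, SE 0.07, adjusted p = 2.86e-20). Vps35l, a subunit of the endosomal retriever complex, was at −1.32, Dlg5, a scaffold protein of cell junctions, at −1.67, and Antxr2, a membrane receptor for matrix proteins, at −1.13.

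Of the 20 genes called lower with the smallest p-values, all of them protein-coding, 9 held an 8-mer or a 7-mer of positions 2 to 8 in the 3′-UTR or the coding sequence, against 909 of 10659 protein-coding genes tested (8.53%). They were Actg1, Maea, Cdh17, Vps35l, Rnf115, Dlg5, Antxr2, Chmp1b and Ube4b. These 20 genes were chosen by p and their count is given as a description. The share was 23% in the 500 genes called lower with the smallest p and 17.1% (267 of 1563) over all protein-coding genes called lower. Among protein-coding genes called higher it was 5.07% (65 of 1282), and none of the 20 with the smallest p held such a match. The shorter 6-mer TCGACA (guide positions 2 to 7) was present anywhere in the mRNA of 16 of these 20 genes, of 38.6% of genes called lower, 16.9% of genes called higher and 23.1% of all protein-coding genes tested. The median mRNA length was 3492 bases over all, 3565 over genes called lower and 3948.5 over genes called higher. Ptpn11, Rpl5, Fgfbp1 and Foxm1 were the members of the 20 with no such 6-mer.

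The sites of 8 of these 9 genes (all but Chmp1b) and of Elovl6, a further gene with an 8-mer, are shown in the order of the mRNA strand, with the bases that match the seed complement in capitals, to let the bases next to the seed be compared with those of Hao1. The first set lies in 3′-UTRs.
Rnf115: tacaggtggaattgtATCGACAA
Ube4b: tcagttcccaacacaATCGACAA
Elovl6: tcatcacgaaaaataATCGACAA
Actg1: gttgggaacgtttgcATCGACAc
Maea: cagaccccagcctgcATCGACAt
Vps35l: gacagcagaaggggaATCGACAg
Antxr2: aacacttgttctgccATCGACAt
Dlg5, exon 32: tgtagtttggctattATCGACAt
The next set lies in coding sequence, where Dlg5 has further sites.
Cdh17: gttatgtactttcaaATCGACAg
Dlg5, exon 20: cggtccccgctgaatATCGACAc
Dlg5, exon 10: tcgcacgactcagccATCGACAc
In GRCm39, these sites are at chr3:96697501-96697523 on the plus strand (Rnf115, exon 9), chr4:149412899-149412921 on the minus strand (Ube4b, exon 27), chr3:129427173-129427195 on the plus strand (Elovl6, exon 4) and chr11:120236667-120236689 on the minus strand (Actg1, exon 6). The site of Maea is at chr5:33529788-33529810 on the plus strand (exon 9), of Antxr2 at chr5:98034218-98034240 on the minus strand (exon 17), of Cdh17 at chr4:11783186-11783208 on the plus strand (exon 6) and of Vps35l at chr7:118440661-118440683 on the plus strand (exon 31). The sites of Dlg5 are at chr14:24184345-24184367 (exon 32, 3′-UTR of the representative transcript, although not in the longest annotated 3′-UTR), chr14:24204392-24204414 and chr14:24216278-24216300, all on the minus strand. Within the 23 bases of each of these windows, 8 to 13 bases were those of the Hao1 site, the seed match included.

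Over whole sets of genes, with Hao1 left out, the median was lowest for the 8-mer, then for the 7-mer of positions 2 to 8, then for the 7-mer with A. These are counts and medians over genes, which are not replicates, and no test was made of them. The 41 genes with an 8-mer in the longest 3′-UTR had a median log2 fold change of −0.21, with 17 called lower and 2 higher. The 156 genes with a 7-mer of positions 2 to 8 had a median of −0.15 (59 lower, 8 higher), the 105 with a 7-mer with A a median of −0.05 (27 lower, 8 higher), and the 10344 with no match a median of 0.01 (1460 lower, 1263 higher). In 10 of the 41 genes the 8-mer also counted as coding in an annotated transcript, and the other 31 had the same median of −0.21 with 12 called lower and 1 higher. Coding sequence held more matches and smaller differences. The 236 genes with an 8-mer there had a median of −0.14 (78 lower, 17 higher), the 528 with a 7-mer of positions 2 to 8 a median of −0.08 (137 lower, 42 higher) and the 9598 with no match a median of 0.02. For the 219 genes whose 8-mer was coding and whose 3′-UTR held no match, the median was −0.14 too, with 69 lower and 15 higher. The 9362 genes with no match in either had 1211 called lower and 1182 higher, so that most genes called lower held no match of 7 or more bases.

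**Figure D2:**
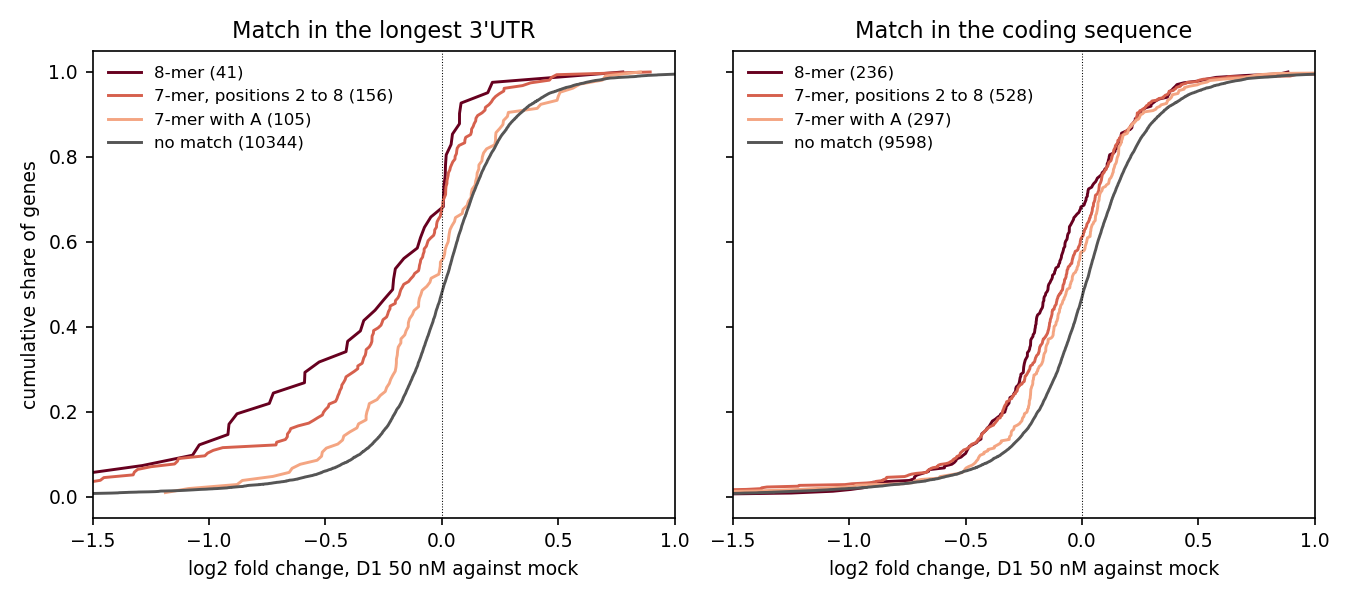
Cumulative share of genes (y axis) by log2 fold change of D1 at 50 nM against mock (x axis, shown from −1.5 to 1), for genes grouped by their longest match to the D1 seed complement in the longest 3′-UTR (left) and in the coding sequence (right), with the number of genes in brackets and Hao1 left out. In 3′-UTRs the medians are −0.21 for the 8-mer, −0.15 for the 7-mer of positions 2 to 8, −0.05 for the 7-mer with A and 0.01 for no match.

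Sets defined by other seeds were examined in the same way, with TCACATT for the passenger strand of D1, CTACCTC for let-7a-5p, TGTTTAC for miR-30a-5p and TAGGTCA for miR-192-5p, each followed by A in the 8-mer. The 443 genes with an 8-mer for the passenger strand in the 3′-UTR had a median log2 fold change of 0.00, with 58 called lower (13.1%) and 52 higher (11.7%). These shares were near the 14.2% lower and 11.7% higher of all genes tested. For the endogenous microRNAs, the 8-mer sets of let-7a-5p (553 genes), miR-30a-5p (1037 genes) and miR-192-5p (200 genes) had medians of 0.06, 0.04 and 0.03. In the let-7a-5p set 103 genes were called higher and 58 lower, or 18.63% higher against 11.7% of all genes tested. The miR-30a-5p set had 168 higher (16.2%) and 140 lower (13.5%), and the miR-192-5p set 25 higher (12.5%) and 23 lower (11.5%).

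Among the 8-mer genes, Rnf115, an E3 ubiquitin ligase, was at 35.8, 34.5, 44.3 and 35.4 CPM with D1 and at 101, 114 and 129 CPM in mock. All D1 libraries were below all mock libraries, and the log2 fold change was −1.61 (SE 0.08, adjusted p = 1.87e-18). Camk2n1, an inhibitor of CaM kinase II, fell furthest of the set from a low level, from a median of 7.64 CPM to between 1.85 and 2.48 CPM (−1.94). Ube4b, a ubiquitin chain elongation factor, was at 61.3, 66.2, 59.98 and 57.6 CPM against 116, 126 and 140 CPM in mock (−1.04). Elovl6, a fatty acid elongase, was at 49.2, 62.5, 61.4 and 56.4 CPM against 103, 106 and 120 CPM (−0.92). Both were separated from mock in every library. Spata6, Cog2 and 2510009E07Rik were called lower at −1.29, −1.07 and −0.91. Tubb5 and Tubb6, beta-tubulins with closely similar coding sequences whose reads may be shared, were called lower at −0.59 and −0.74, and their sites were coding in the representative transcript. The 8-mer genes called higher were Enpp2, the enzyme autotaxin, at 0.78 and Wfs1, an endoplasmic reticulum membrane protein, at 0.22. A match was thus no guarantee of a decrease: Tgfb2 and Itgb4 carry a coding 7-mer of positions 2 to 8 and rose by 1.17 and 1.24 on the log2 scale.

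Cell cycle and DNA replication genes fell as a group. Of 35 members tested, 32 were called lower and none higher (91.4% lower against 14.2% of all genes tested), with a median log2 fold change of −0.91 against 0.01. In 30 of the 35, all 4 D1 libraries lay below all 8 mock libraries. Over all 11251 genes tested, 915 were called lower with the same separation. Ccnb2, a mitotic cyclin, was at 0.974, 2.54, 1.38 and 2.60 CPM with D1 and at 8.25, 13.8 and 21.3 CPM in mock, a log2 fold change of −2.82 (SE 0.27, adjusted p = 6.02e-10). Top2a, the topoisomerase that separates replicated chromosomes, was at 32.9, 45.1, 36.3 and 39.4 CPM against 114, 126 and 159 CPM (−1.75, adjusted p = 2.15e-15). Birc5, the survivin subunit of the chromosomal passenger complex, was at 9.25, 9.95, 6.33 and 10.9 CPM against 28.2, 34.5 and 41.3 CPM (−1.91, adjusted p = 5.72e-14). The D1 and mock libraries did not overlap for any of these.

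Within the list, decreases ranged widely. The anaphase regulator Cdc20 was at −1.99, the spindle checkpoint kinase Bub1 at −1.89, the proliferation marker Mki67 at −1.77 and the mitotic kinase Aurkb at −1.70. Outside the list but in the same class by function, Ube2c, the ubiquitin-conjugating enzyme of the anaphase-promoting complex, was at −2.39 and the kinetochore gene Knl1 at −2.24. Of genes of DNA replication, Rrm2, a subunit of ribonucleotide reductase, was at −1.495 and the origin licensing factor Cdc6 at −1.36, while the mitotic kinase Cdk1 was at −1.22. The replicative helicase genes Mcm2 to Mcm7 lay between −0.85 and −0.56, the replication clamp Pcna at −0.55, Ccnd1, the cyclin of G1, at −0.32 and its kinase Cdk4 at −0.21. Foxm1, the transcription factor of the mitotic gene programme, was at −1.53. The members not called were Rfc4 (−0.47, adjusted p = 0.0508), Cdk2 (−0.13, adjusted p = 0.311) and Ccnd2 (0.55, adjusted p = 0.201). None of the 35 members held an 8-mer or a 7-mer of positions 2 to 8 in its 3′-UTR or coding sequence, and 9 held the 6-mer.

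The median of the 35 genes per library, as log2 CPM minus the mean of mock, was −0.75, −0.89, −0.99 and −0.80 with D1 at 50 nM and −0.13 to 0.20 in mock. With D1 at 10 nM it was −0.75 to −0.46, with D2 at 50 nM −0.47 to −0.21 and with D4 at 50 nM −0.68 to −0.21. The median log2 fold change of the list against mock was −0.07 at 0.1 nM, −0.25 at 1 nM, −0.63 at 10 nM and −0.91 at 50 nM of D1, −0.38 with D2 and −0.47 with D4, all against the same mock libraries. The libraries of D1 at 50 nM were thus lower than those of D2 and D4 at the same dose, which themselves lay below mock. In direct fits, 26 of the list were called lower with D1 than with D2 at 50 nM and 27 lower and 3 higher than with D4. None was called between 50 and 10 nM of D1, where the median difference was −0.23 and 33 of 35 were negative.

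**Figure D3:**
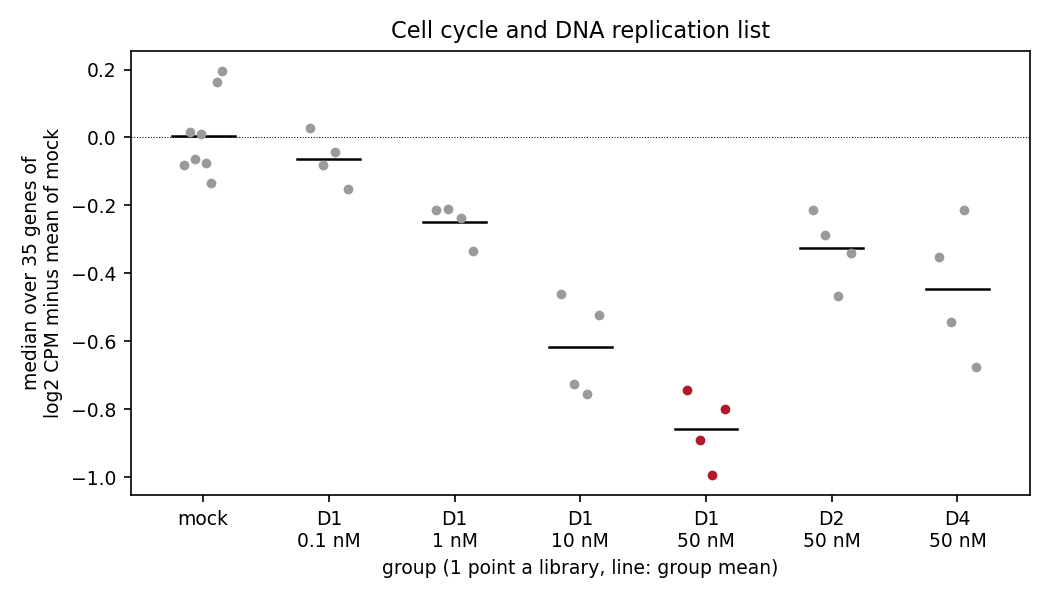
Median over the 35 cell cycle and DNA replication genes of log2 CPM minus the mean of mock (y axis), 1 point a library, by group (x axis), with a line at each group mean and D1 at 50 nM in red. The 4 libraries of D1 at 50 nM lie from −0.99 to −0.75 and the 8 mock libraries from −0.13 to 0.20.

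Among lists of hepatocyte function, those of plasma proteins, cytochrome P450 and complement held more genes called higher than lower. Others below, such as cholesterol and urea cycle genes, held more called lower. Of 51 secreted plasma protein genes tested, 27 were called higher (52.9%) and 3 lower (5.88%), with a median log2 fold change of 0.19. Over all genes tested the shares were 11.7% higher and 14.2% lower. Ttr, transthyretin, the carrier of thyroxine and retinol-binding protein and the target of other siRNAs of the study, was at 1034, 1015, 1009 and 1076 CPM with D1 and at 545, 679 and 732 CPM in mock. Every D1 library exceeded every mock library, with a log2 fold change of 0.64 (SE 0.06, adjusted p = 1.76e-11). Lcat, which esterifies cholesterol on lipoproteins, was called higher at 0.71, the lipoprotein-bound paraoxonase Pon1 at 0.43 and the apolipoprotein Apoa2 at 0.34. The exceptions were Igfbp1 (−0.85), Igfbp4 (−0.61), which bind insulin-like growth factors, and the fetal protein Afp (−0.44). F12, coagulation factor XII, was at 96.1, 99.7, 85.8 and 89.0 CPM against 68, 80.1 and 88.9 CPM in mock, where the groups overlapped (0.23, adjusted p = 0.013). The call of F12 was lost without D1 replicate 1 (adjusted p = 0.0515) and without D1 replicate 2 (adjusted p = 0.0687).

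Cytochrome P450 and conjugation genes, which metabolise drugs and steroids, had a median of 0.32, with 21 of 40 called higher and 3 lower. The shares were 52.5% higher and 7.5% lower, against 11.7% and 14.2% of all genes tested. Cyp2c29 was at 220, 213, 230 and 214 CPM with D1 and at 116, 136 and 147 CPM in mock, without overlap (0.72, adjusted p = 6.29e-12). Ces1d (a carboxylesterase, 0.72), Ugt2b36 (a glucuronosyltransferase, 0.80) and Cyp2c50 (0.66) rose too, whereas Cyp2a5 (−0.77), Cyp3a13 (−0.35) and Cyp2c70 (−0.20) fell. Members of the Cyp2c and Ugt2b families are similar in sequence, so reads may be shared between them. Of 23 complement genes, 12 were called higher (52.2%) and 1 lower (4.35%), with a median of 0.28. Among them were C8a (0.66) and C4bp (0.51), with Clu lower at −0.41. Without D1 replicate 4 the complement genes called higher were 7. Without D1 replicate 4 the P450 genes called lower were 1. The summed hepatocyte markers had a median of 24520 CPM with D1 and 21780 CPM in mock, with overlapping ranges, and their part in these results was not tested.

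Acute phase genes and targets of NF-kB, the transcription factor of inflammatory signalling, had a median of 0.23, with 15 of 32 called higher and 1 lower. The shares were 46.9% higher and 3.1% lower, against 11.7% and 14.2% of all genes tested. Ccl2, the monocyte-attracting chemokine, was at 414, 473, 472 and 439 CPM with D1 and at 221, 246 and 253 CPM in mock (0.89, adjusted p = 8.44e-17). Fgg, the fibrinogen gamma chain, was at 384, 410, 377 and 359 CPM against 177, 220 and 228 CPM (0.85, adjusted p = 1.81e-14). Neither gene overlapped between the groups. Tnfaip3, the NF-kB inhibitor A20, rose by 0.77, Serpina3n by 0.63, and the chemokine Cxcl1 was called lower at −0.29. Among called genes with a mean of at least 5 CPM and no overlap with mock, the largest increases included further chemokines. Cxcl9 was at 57.4, 55.7, 49.8 and 52.0 CPM against 14.3, 20.3 and 26.1 CPM in mock (1.42, adjusted p = 3.2e-13), and Ccl7 at 21.9, 28.5, 27.8 and 21.0 CPM against 4.16, 8.15 and 11.1 CPM (1.73, adjusted p = 3.51e-08).

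Genes of interferon response and RNA sensing, which double-stranded RNA can induce, were mostly not called. Of 44 tested, 2 were called higher (4.5%) and 1 lower (2.3%), with a median of 0.07. These shares were below the 11.7% higher and 14.2% lower of all genes tested. Against the same mock libraries, the median of the list was −0.58 at 0.1 nM, −0.13 at 1 nM and 0.11 at 10 nM of D1. The chemokine Cxcl9, given above at 1.42, was not a member of the list. Irf1 was called higher at 0.46 and Eif2ak2, the RNA-activated kinase PKR, lower at −0.29. Rsad2, the antiviral enzyme viperin, was at 132, 192, 441 and 65.7 CPM with D1 against 58.8 to 115 CPM in mock, so that replicate 4 overlapped mock and replicate 3 exceeded the rest (1.38, adjusted p = 0.034). Without D1 replicate 4, 7 of the list were called higher, while without D1 replicate 2 or replicate 3 it was 1. It was also 1 without mock replicate 2, 4, 6, 7 or 8. Those called lower were 5 without D1 replicate 3.

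**Figure D4:**
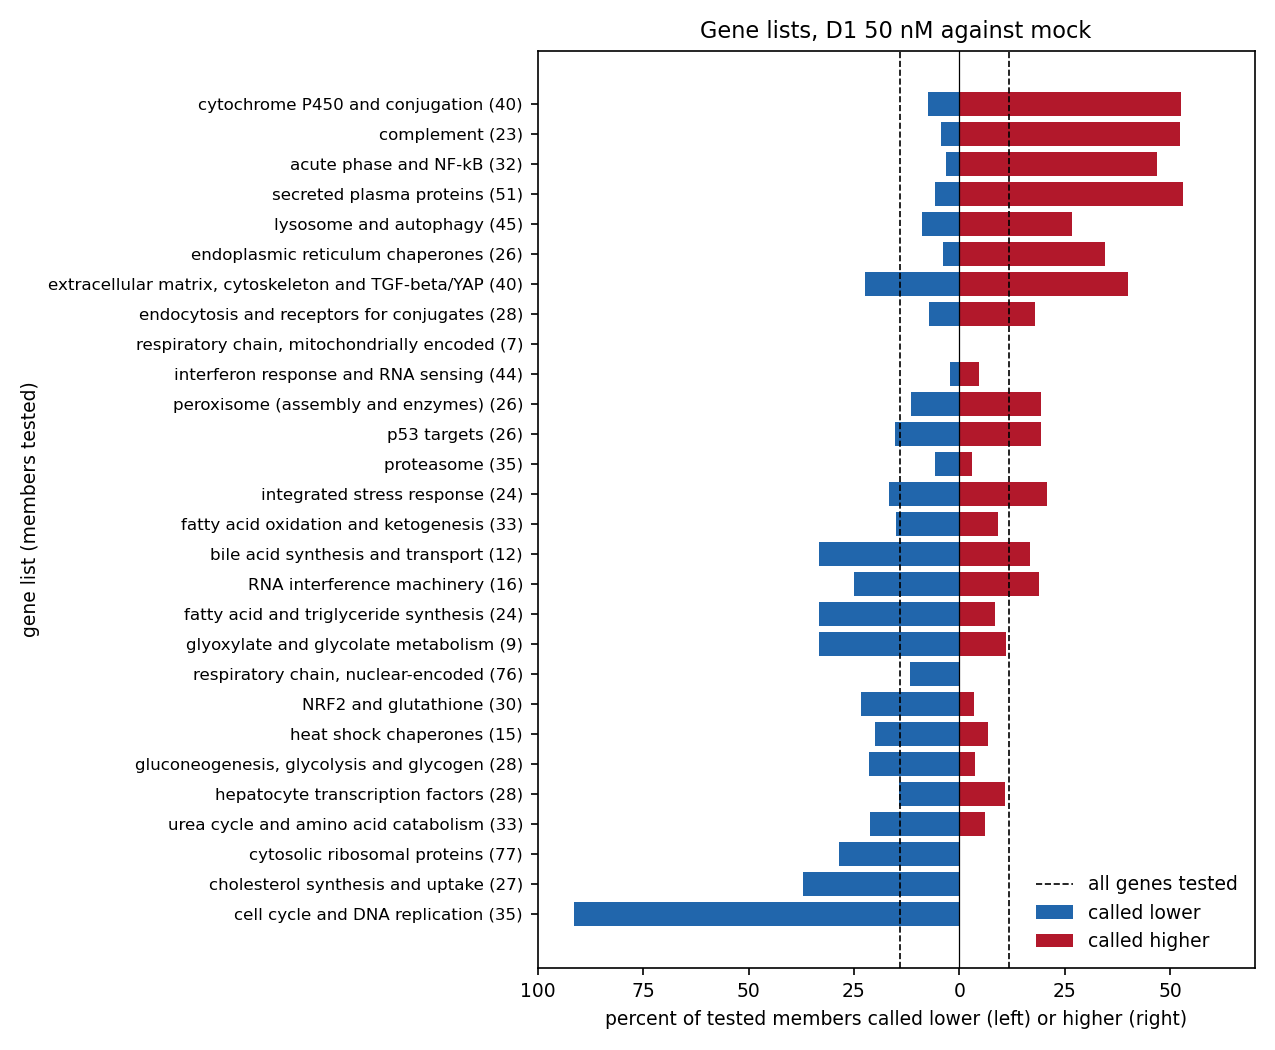
Percent of the tested members of each gene list called lower (blue, to the left) or higher (red, to the right) with D1 at 50 nM against mock at an adjusted p under 0.05, with the number of members tested in brackets and dashed lines at the 14.2% and 11.7% of all genes tested. Of the cell cycle list 32 of 35 were lower, and of the P450, complement, acute phase and plasma protein lists 21 of 40, 12 of 23, 15 of 32 and 27 of 51 were higher.

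The cytoskeleton and extracellular matrix list moved in both directions. Of 40 members, 16 were called higher (40%) and 9 lower (22.5%), against 11.7% and 14.2% of all genes tested (median 0.11). Col4a2, a basement membrane collagen chain, was at 552, 612, 610 and 497 CPM with D1 and at 238, 276 and 289 CPM in mock, without overlap (1.05, SE 0.06, adjusted p = 7.98e-18). The growth factor Tgfb2 was at 1.17, the keratin Krt19 at 0.57, the laminin chain Lamb3 at 0.51 and Vcl, vinculin of focal adhesions, at 0.50. Against these, Actg1, Ankrd1 (−0.54), a target of YAP, the annexin Anxa2 (−0.43) and Lgals1, galectin-1 (−0.38), fell. Outside the list, Vil1 of microvilli had the largest increase among called genes without mock overlap and with a mean of at least 5 CPM. This actin-bundling gene was at 15.3, 14.1, 12.4 and 13.01 CPM against 1.56, 3.86 and 5.65 CPM in mock (1.93, SE 0.20, adjusted p = 1.08e-09). Col4a5 and Itgb4, a collagen and a laminin receptor, were at 1.41 and 1.24. Of 7 cholangiocyte markers tested, 3 were called higher: Krt19, Cldn4 (0.88) and Epcam, which was at 7.06, 5.78, 7.43 and 9.02 CPM against 0.595, 1.66 and 2.83 CPM in mock (2.04, adjusted p = 1.28e-07). The summed bile duct markers rose beside these matrix and microvillus genes, and their part in the result was not tested.

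**Figure D5:**
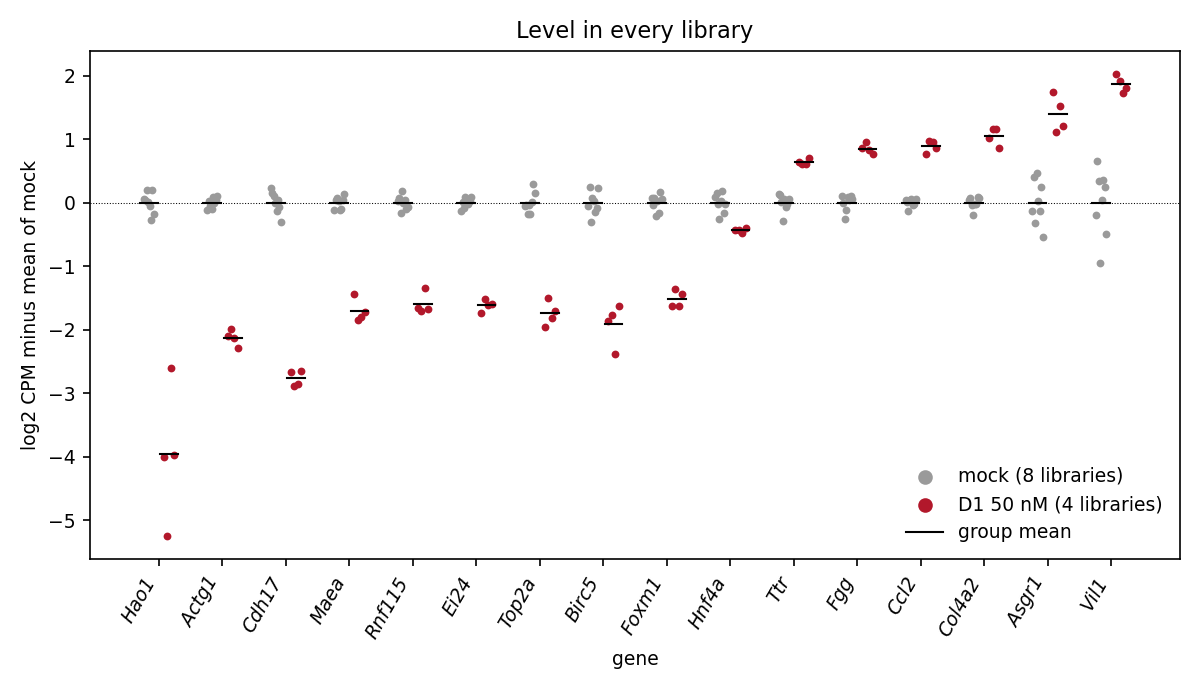
Log2 CPM minus the mean of mock (y axis) for 16 genes (x axis), 1 point a library, grey for the 8 mock and red for the 4 D1 libraries at 50 nM, with a line at each group mean. Hao1 lies lowest, from −5.25 to −2.59 with D1. For each of these genes the D1 libraries do not overlap with mock. A rule that named Hao1, Cdh17, Actg1, Col4a2, Asgr1 and Vil1 required this, so it is no separate result for them. The other genes plotted were largely chosen by small p in these same libraries, which favours such separation.

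Receptors and uptake genes included the receptor for the siRNA ligand itself. Asgr1, the major chain of the asialoglycoprotein receptor that binds GalNAc, was at 11.9, 7.63, 10.2 and 8.15 CPM with D1 and at 2.13, 3.15 and 4.68 CPM in mock, without overlap (1.48, SE 0.21, adjusted p = 1.12e-06). Asgr2, the other chain, was called higher at 0.70. Of 28 genes of endocytosis and conjugate receptors, 5 were called higher (17.9%) and 2 lower (7.14%). In the RNA interference machinery, 3 of 16 were higher (18.8%) and 4 lower (25%). Over all genes tested the shares were 11.7% higher and 14.2% lower. Drosha, the nuclease that releases microRNA precursors in the nucleus, was at 35.3, 35.2, 35.8 and 34.0 CPM against 62.4, 74.5 and 81.8 CPM (−1.07, adjusted p = 3.2e-13), and it holds a coding 8-mer. Its partner Dgcr8 rose by 0.65, and Ago1 and the Argonaute-binding Tnrc6b by 0.26 and 0.31. Ago2, the Argonaute that cleaves targets, was at −0.25, the precursor exporter Xpo5 at −0.22 and the chaperone Hsp90ab1 at −0.17. Dicer1 was at 0.04 with an adjusted p of 0.687.

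The shares in lists of stress responses are given beside the 11.7% higher and 14.2% lower of all genes tested. Of 26 p53 targets, 5 were higher (19.2%) and 4 lower (15.4%), with a median of 0.05. Cdkn1a, the cell cycle inhibitor p21, was at 0.20 and Plk2 at 0.40, both called higher, while Ei24, Phlda3 (−1.45, with a 3′-UTR 7-mer of positions 2 to 8) and Ckap2 (−1.24), a mitotic gene, fell. Without D1 replicate 1 the p53 targets called higher were 3. Of 24 genes of the integrated stress response, 5 were higher (20.8%), led by the lipoprotein receptor Vldlr (0.85), and 4 lower (16.7%), led by the serine synthesis gene Phgdh (−0.95). Of 30 NRF2 and glutathione genes, 1 was higher and 7 lower (23.3%), with Gsta1 at −0.73 and Gsr, glutathione reductase, at −0.61. Of 26 endoplasmic reticulum chaperones, 9 were higher (34.6%) and 1 lower (median 0.12), with Hspa5 (BiP) at 0.30, and of 15 heat shock chaperones 1 was higher and 3 lower. Of 45 lysosome and autophagy genes 12 were higher and 4 lower, and of 35 proteasome genes 1 and 2.

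Over all genes tested more were called lower (14.2%) than higher (11.7%), and the shares in metabolic lists are read beside these. Of 27 genes of cholesterol synthesis and uptake, 10 were called lower (37.04%) and none higher (median −0.12). Scap, the sterol-sensing escort of SREBP, was at 58.7, 58.5, 59.2 and 58.1 CPM against 87.1, 98.5 and 106 CPM in mock (−0.74, adjusted p = 4.77e-11) and carries a coding 7-mer of positions 2 to 8. Insig1, which retains Scap, was at −0.52, and Srebf2 and the synthesis gene Lss were at −0.31 and −0.26. The count depended on single libraries: it was 6 without D1 replicate 1, 4 without D1 replicate 3, 5 without D1 replicate 4 and 15 without D1 replicate 2. Of 24 genes of fatty acid and triglyceride synthesis, 8 were lower (33.3%), led by Elovl6 and the desaturase Scd2 (−0.81), and 2 higher. Genes of glucose metabolism gave 6 lower (21.4%) and 1 higher of 28, with the glycogen phosphorylase Pygl at −0.47. Gapdh, a glycolytic enzyme often used as a reference gene, was at 691, 644, 661 and 657 CPM against 700, 745 and 782 CPM, a small difference without overlap (−0.17, SE 0.05, adjusted p = 0.00576). Fatty acid oxidation had 3 higher (9.09%) and 5 lower (15.2%) of 33, about the background, peroxisomal genes 5 and 3 of 26, bile acid genes 2 and 4 of 12, and urea cycle and amino acid genes 2 and 7 of 33. Some of these small counts fell when a library was left out. Glucose metabolism genes called lower were 3 without D1 replicate 3, and urea cycle and amino acid genes called lower were 4 without D1 replicate 1 or mock replicate 6 and 3 without D1 replicate 3 or 4. Peroxisomal genes called higher were 2 without D1 replicate 3, 1 without D1 replicate 4 and 3 without mock replicate 3, 7 or 8.

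Of 76 nuclear-encoded respiratory chain genes, 9 were called lower (11.8% against the background of 14.2%) and none higher, and of the 7 mitochondrially encoded ones tested none was called. Ndufv1, a core subunit of complex I, was at 32.4, 44.6, 27.8 and 27.8 CPM against 91.8, 95.9 and 103 CPM, far below mock in every library (−1.55). Its mRNA held the 6-mer only. Atp5j (−0.66), with a coding 8-mer, Ndufs8 (−0.52) and Sdha (−0.45) were lower, and 5 of the 9 held an 8-mer or a 7-mer of positions 2 to 8. Without D1 replicate 3 the list had 5 called lower. Of 77 cytosolic ribosomal protein genes, 22 were lower (28.6% against 14.2%) and none higher (median −0.12), or 13 lower without D1 replicate 3. Against the same mock libraries, the median of this list was −0.14 with D2 at 50 nM, so the shift was not particular to D1. It was 0.02 with D4 at 50 nM and −0.002 with D1 at 10 nM. Between 50 and 10 nM of D1 the median difference was −0.12, with 73 of 77 negative and none called. Rps25 was at 109, 114, 111 and 123 CPM against 230, 271 and 289 CPM (−1.23) and Rpl5 was at −0.94, while Rpl3 and Rps9 were at −0.35 and −0.32. Ribosomal protein genes have many processed pseudogenes, so that their reads may be divided.

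Transcription factors of hepatocyte identity were 4 lower and 3 higher of 28 (median −0.07), or 14.3% and 10.7%, near the 14.2% and 11.7% of all genes tested. Hnf4a, a central regulator of hepatocyte genes, was at 185, 186, 180 and 191 CPM with D1 and at 210, 252 and 285 CPM in mock, without overlap (−0.44). Its value thus had the opposite sign to the median of the plasma protein and P450 lists. The glucose-responsive factor Mlxipl was at −0.72 and the retinoid receptor Rxra, with a coding 8-mer, at −0.49. The fatty acid sensor Ppara (0.35), Bcl6 (0.46) and the oxysterol receptor Nr1h2 (0.24) were called higher.

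Between 50 and 10 nM of D1, no difference was called. Of 11084 genes tested (0% called), the smallest adjusted p was 0.959 in edgeR's quasi-likelihood test, 490 genes had an unadjusted p under 0.05, and DESeq2 called 0. The median standard error of these differences was 0.12 on the log2 scale, and the lack of calls does not show that the doses acted alike. Direct log2 differences of 50 against 10 nM were −0.15 for Cdh17, −0.21 for Actg1, −0.14 for Maea and −0.06 for Rnf115. They were 0.21 for Vil1 and 0.02 for Ttr. Larger values were −0.985 for Ube2c (SE 0.218) and −0.763 for Knl1 (SE 0.269), with an adjusted p of 0.959 for each. Against the shared mock libraries, Cdh17 was at 0.01, −0.76, −2.62 and −2.77 at 0.1, 1, 10 and 50 nM, whereas Hao1 was at −3.62 at 1 nM. Actg1 was at −0.27, −1.08, −1.93 and −2.15, and Rnf115 at −0.10, −0.56, −1.54 and −1.61. Ttr was at −0.07, 0.09, 0.62 and 0.64 and Cxcl9 at −0.05, 0.22, 1.52 and 1.42, so for these genes the values at 0.1 and 1 nM were smaller than those at 10 and 50 nM.

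At the same dose of 50 nM, D1 differed from D2, whose guide has the GNA cytosine at seed position 5 and the same bases. Of 11033 genes tested, 1549 were called (14%), 635 higher (5.76%) and 914 lower (8.28%) with D1. Among the largest differences were genes that D1 had lowered against mock: Cdh17 differed by −2.60 (SE 0.09, adjusted p = 2.93e-20), Actg1 by −2.14 (SE 0.08, adjusted p = 1.6e-19), Maea by −1.62 and Ei24 by −1.48. Against mock, D2 had values of −0.16, 0.00, −0.08 and −0.14 for the same genes. The 8-mer genes Rnf115, Ube4b and Elovl6 were lower with D1 than with D2 by log2 differences of −1.31, −1.09 and −0.63, and Drosha by −0.94. Vil1 was higher with D1 by 2.52 and Cxcl9 by 1.17. Other genes that D1 had raised were not called between the duplexes: Col4a2 differed by 0.16 (adjusted p = 0.122) and Tgfb2 by 0.51 (adjusted p = 0.241), having been at 0.90 and 0.66 with D2 against mock. Gapdh differed by 0.00 (adjusted p = 0.971). Hao1 itself was at −4.25 with D2 against mock, and was not tested between them because its counts were too low in both groups.

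Against D4 at 50 nM, an siRNA of another sequence, 3907 of 11133 genes were called (35.1%), 1964 higher (17.6%) and 1943 lower (17.5%) with D1. The largest was Ttr, the target of D4, at 9.69. Hao1 differed by −3.16 (adjusted p = 4.33e-07), having been at −0.80 with D4 against mock. Actg1, Ei24, Maea and Dlg5 were lower with D1 by log2 differences of −2.44, −1.80, −1.65 and −1.97, and Ube4b by −1.46. Fgg and Ccl2, which were at −0.85 and −0.45 with D4 against mock and higher with D1, differed by 1.70 and 1.35. Epcam was lower with D1 than with D4 (−1.14), having been at 3.19 with D4 against mock.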

How the data were processed

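RNA of primary mouse hepatocytes was measured 24 h after transfection. Per the paper's methods, the authors filtered reads for a mean quality of at least 28 and a length of at least 36, used STAR for alignment to GRCm39, and deposited raw counts of uniquely aligned reads (mapping quality of at least 10) per gene, in 1 file for each of 2 sequencing runs. The submitters' processing notes name featureCounts 2.0.2 and DESeq2 1.32.0. The library kit was stranded. The STAR version, the annotation release and the strand setting of the counting are not given in the sources used here, so that reads of overlapping or antisense genes may not be separated. The deposited DESeq2 tables of comparisons with mock (fold changes, standard errors, Wald statistics, p-values) were used only for gene symbols, which matched 52340 of 55416 genes, with 141 symbols shared by several IDs.

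The counts of both runs were summed and the 92 ERCC entries left out. Groups were taken from the treatment labels. Total counts were 3409963 to 5691251 over the D1 50 nM and mock libraries, so that genes with few counts have imprecise levels. No replicate pair agreed within sampling noise: the chi-square divided by its degrees of freedom was 1.67 or more. Each comparison used edgeR 4.0.16 in R 4.3.3 on the libraries of its 2 groups, with filterByExpr, TMM, glmQLFit (robust) and glmQLFTest, and Benjamini-Hochberg adjustment over all genes tested. A gene with an adjusted p under 0.05 is referred to as called, and a fold change as log2. The fit was tested on simulated counts. CPM used TMM library sizes, and log2 CPM a prior count of 2. Matches and positions were read from GRCm39 with GENCODE M39 by Python 3.11.15.

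The members, gene lists and tests were chosen with earlier results of these data known. The genes named are Hao1, Gapdh, F12 and Ttr; the 14 largest decreases and increases among genes called with a mean of at least 5 CPM and no overlap with mock; up to 4 called members of each list and direction by smallest p; the 10 genes with a 3′-UTR 8-mer called lower by smallest p; the 5 in each direction of each direct comparison; and marker genes. The 20 genes called lower with the smallest p, the list members that were not called and the other genes of a family were named after their values were seen. The alternatives tried were library size alone, RLE size factors, the tool DESeq2 1.42.0 (betaPrior on), all genes with a count, all libraries in 1 fit, either run alone, the replicate number as a block, any annotated 3′-UTR and each library left out. The other groups of the series were not analysed here beyond their use in that fit and in dose values. The guide was not read from a deposited file but taken as the reverse complement of the Hao1 site.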

Additional observations from a re-analysis of the deposited data

Results flagged for a closer look

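Over 92 groups of values of 41 genes and library measures, single libraries lay far from the others of their group in 5, where chance flags about 1 in 20 groups. Per2, a clock gene called higher with D1, was at 5.60 CPM in mock replicate 1 and at 3.90 to 4.46 CPM in the other mock libraries. Col4a2 was at 238 CPM in mock replicate 4 and at 266 to 289 CPM in the others, all far below the D1 libraries. Rnf115 was at 44.3 CPM in D1 replicate 3 and at 34.5 to 35.8 CPM in the other D1 libraries, all below mock. Tubb6 was at 337 CPM in mock replicate 8 and at 266 to 297 CPM in the others. D1 replicate 4, the D1 library at 50 nM with the most counts, had 17340 genes with a count, against 16110 to 16250 in the other D1 libraries. The responses to D1 and to other siRNAs at 50 nM differed in direct tests, with 1549 genes called against D2 and 3907 against D4.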

How the results depend on the processing

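The number of genes called against mock was 2146 to 3028 over the alternatives (2914 in the report) and 2383 to 2923 with single libraries left out, lowest without D1 replicate 3. With library size alone, 1462 genes were higher and 1487 lower, against 1317 and 1597 with TMM, and the median of all genes was at 0.02 in place of 0.01. Between 50 and 10 nM of D1, 1 gene was called when all genes with a count were tested and 0 otherwise, with 0 to 0 on leaving out a library. Against D2 the count was 1065 to 1701 (1156 to 1538 without single libraries), and against D4 3035 to 4115 (3439 to 3745). The log2 fold change of Hao1 was −2.94 with the shrinkage of DESeq2 and −4.64 to −3.65 without single libraries. The 8-mer genes called lower were 12 to 21, out of sets of unlike size. They were 17 of 41 in the report, 21 of 55 with any annotated 3′-UTR and 12 of 37 in run 2 alone. They were 12 of 31 when genes with a coding 8-mer were left out, an alternative chosen after seeing the data. Without single libraries they were 13 to 17. Of 800 values of 40 single genes, 796 kept direction and call, none reversed and 4 lost the call (Gapdh, F12 for 2 libraries and Taf7 in run 2 alone, at 0.42 with an adjusted p of 0.207). Genes named here were largely chosen for large changes or small p in these same data. The count therefore says little about weaker calls. Cell cycle genes called lower were 31 to 33 under each alternative, cholesterol genes 3 to 15, ribosomal protein genes 11 to 29 and complement genes called higher 7 to 14. The replicate numbers did not pair the libraries: the correlation of same-numbered deviations of D1 and mock was −0.088 to 0.12. Mock replicates 5 to 8 have no D1 library of the same number. With the block, the contrast with mock therefore rested on mock replicates 1 to 4 only. With the replicate number as a block, 2368 genes were called against mock, 0 against D1 at 10 nM, 1661 against D2 and 4033 against D4, Hao1 was at −4.03, 15 of the 8-mer genes were lower, and Gapdh was at −0.15 with an adjusted p of 0.0974. Under the block, NRF2 and glutathione genes turned from 1 higher and 7 lower to 5 higher and 4 lower, and of the glyoxylate list 1 was lower in place of 3. Members called lower went from 6 to 1 for glucose metabolism, from 7 to 3 for urea cycle and amino acid genes, from 5 to 3 for fatty acid oxidation, from 8 to 5 for fatty acid synthesis, from 10 to 3 for cholesterol, from 22 to 11 for ribosomal proteins and from 9 to 5 for the nuclear-encoded respiratory chain, and proteasome genes from 1 higher and 2 lower to 3 and 0. Low counts limit the residual Hao1 level and genes near 1 CPM.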
